A study of Mus musculus with 30 samples.

Results

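Alpha-cells made to express Pdx1 were compared between mice that had lost their beta-cells and mice that had not, by bulk RNA-seq of cells sorted by fluorescence. The comparison takes 11 of the 30 libraries of the series, chosen by their transgenic label: 6 libraries labelled aPdx1OE DT and 5 labelled aPdx1OE noDT. The mice of all 11 carried Glucagon-rtTA, a transactivator under the glucagon promoter, with TetO-Cre, the reporter R26YFP and the Pdx1 transgene CAGPdx1. The aPdx1OE DT mice also carried RIP-DTR, were injected with diphtheria toxin (DT) at 2 months of age, and gave their cells 30 days later. The aPdx1OE noDT mice had no RIP-DTR and no toxin, and were 3 months old. RIP-DTR, which puts the toxin receptor under the rat insulin promoter, and the toxin itself came together, so their effects cannot be told apart. For comparison, ctl DT (4 libraries) were labelled as alpha-cells of Glucagon-Venus mice with RIP-DTR, 30 days after the toxin. The ctl noDT group (8 libraries) was labelled as mature alpha-cells of 3-month-old Glucagon-Venus mice. By these labels both groups were without the Pdx1 transgene and with another reporter. The b-cell reference (7 libraries) was of mature beta-cells of Insulin-mCherry mice aged 3 months.

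Alpha-cells secrete glucagon and beta-cells secrete insulin, and both release their hormone from dense-core granules by regulated exocytosis. Pdx1 is the homeodomain factor that beta-cells need for insulin gene transcription and that mature alpha-cells normally lack. In mice in which the toxin has killed nearly all beta-cells, a small share of alpha-cells is known to begin making insulin. Both cell types process their prohormones with convertases and with carboxypeptidase E, and both fuse granules through SNARE proteins such as VAMP2.

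The values were the authors' quantile-normalized log2 values, with a median of 8.55. At the upper end the libraries share their levels, so the most abundant genes show only their rank (22.56 is the top value, 20.54 the next). Their lowest values differ. That of aPdx1OE DT 6 was 2.35, shared by 1437 genes. It was 0.76 to 0.92 in the other aPdx1OE DT libraries and 0.76 to 1.03 in aPdx1OE noDT. Differences and overlap of genes at the low end depend on this. Read numbers were not in the table. Differences are log2 fold changes ± standard error from limma fitted to all 30 libraries, with p-values adjusted over the 16633 genes tested and called below 0.05. The labels do not say that libraries came from separate animals, so p-values measure only the spread between these samples. In bulk RNA, fewer cells of a type and less RNA per cell cannot be told apart. No label gives a sort or sequencing date, and the sample titles are numbers of unstated meaning. They hold a 5-digit number in 4 of the 6 aPdx1OE DT libraries (not in aPdx1OE DT 5 and 6) and in 0 of the 5 aPdx1OE noDT libraries. Among the ctl groups they hold one in 4 of the 4 ctl DT and in 1 of the 8 ctl noDT libraries. A batch running with the toxin therefore cannot be told apart from it in either pair of groups.

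Pdx1 (chr5:147269959-147275848, GRCm38), which counts the endogenous gene and the transgene together, checked the labels. It was 11.87, 12.59, 11.53, 11.64, 5.51 and 11.66 in aPdx1OE DT 1 to 6, against 11.60, 10.78, 11.83, 11.64 and 8.61 in aPdx1OE noDT 1 to 5. Pdx1 in the library labelled aPdx1OE DT 5 was as low as in most ctl libraries, and aPdx1OE noDT 5 had the lowest value of its group. Over all genes the library labelled aPdx1OE DT 5 was most alike to ctl noDT 4 (Pearson r = 0.993, the highest of 435 pairs of libraries, against 0.826 to 0.904 with the rest of its own group), and whether both labels stand for 1 RNA sample was not tested. The library labelled aPdx1OE noDT 1 was most alike to ctl noDT 8 (r = 0.958) and aPdx1OE noDT 5 to ctl noDT 2 (r = 0.966). The alpha-cell hormone gene Gcg took the top value in 3 of the 6 aPdx1OE DT libraries and in 2 of the 5 aPdx1OE noDT libraries, and was 18.63 or higher in all 11. The number of distinct values below the first quartile, which grows with depth, was 32 in aPdx1OE DT 6 and 61 to 98 in the other aPdx1OE DT libraries, against 40 to 88 in aPdx1OE noDT. Of the ctl libraries, ctl noDT 8 had Pdx1 at 11.23, and the others at 3.66 to 6.70. The library labelled ctl noDT 8 also had Ins1 at 18.27 and Iapp at 17.92, within the range of aPdx1OE noDT (15.11 to 19.27 and 17.92 to 19.27). It stays in the ctl differences given below, and whether its label is right was not tested. Counts and fold changes below are from all 11 libraries unless the library labelled aPdx1OE DT 5 is said to be left out.

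Loss of beta-cells was accompanied by changes in 1534 genes (9.22% of those tested) in Pdx1-expressing alpha-cells, 804 higher (4.83%) and 730 lower (4.39%) in aPdx1OE DT. Without aPdx1OE DT 5 the count was 2558 (15.4%), with 1248 higher (7.5%) and 1310 lower (7.88%). In all 1496 genes were called both ways with the same sign, 785 higher and 711 lower, and 38 were called only with the library in. Among these 1496 genes 864 differed by at least 1 and 165 by at least 2 on the log2 scale, while the median of all genes tested was -0.06. When the test was made against a log2 fold change of 1, limma called 0 genes with all libraries (274 at an unadjusted p below 0.05) and 3 without aPdx1OE DT 5, so the calls show change but not its size. The values of both groups did not overlap in 758 genes (4.56%; 2.03% with aPdx1OE DT higher), and in 1811 (10.9%; 5.2% higher) without aPdx1OE DT 5. The number of calls rested on single libraries: it was 563 without aPdx1OE noDT 5, 671 without aPdx1OE noDT 2, 798 without aPdx1OE noDT 4, 819 without aPdx1OE DT 6, 968 without aPdx1OE noDT 3, 976 without aPdx1OE DT 4 and 1006 without aPdx1OE DT 1.

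Rspo4 (chr2:151842927-151874668), a secreted R-spondin that strengthens Wnt signalling, had 9.34, 10.39, 9.12, 9.57, 6.89 and 9.82 in aPdx1OE DT 1 to 6, against 7.06, 5.53, 6.55, 5.36 and 5.58 in aPdx1OE noDT. All aPdx1OE DT libraries but the fifth lay above every aPdx1OE noDT library. Rspo4 rose by 3.17 ± 0.46 (limma adjusted p = 0.000795), and by 3.63 (adjusted p = 2.65e-06) without aPdx1OE DT 5. In ctl DT against ctl noDT its difference was 1.22 ± 0.47 (limma adjusted p = 0.133). The interaction, which sets the difference of one pair of groups against that of the other, was not called for Rspo4 (adjusted p = 0.411). Of 30 measured genes of the R-spondin and Wnt pathway list, 2 rose and 1 fell (3 rose and none fell without aPdx1OE DT 5), beside 9.22% of all genes called (15.4% without that library). The other that rose was Dkk3, a secreted member of the Dickkopf family, with 6.58, 5.57, 6.50, 6.2, 6.23 and 9.29 in aPdx1OE DT against 4.12, 3.09, 0.91, 2.21 and 2.86 in aPdx1OE noDT. Its groups did not overlap, and the difference was 4.09 ± 1.03 (limma adjusted p = 0.0147; 4.19, adjusted p = 0.0105 without aPdx1OE DT 5), close in size to that of ctl DT against ctl noDT (4.0 ± 1.04). Wnt5b, a Wnt ligand, was at -2.35 ± 0.74 (adjusted p = 0.042) with all libraries and at -1.96 (adjusted p = 0.0678) without aPdx1OE DT 5.

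The peptide genes Npy and Vip were higher with the toxin in both pairs of groups, with and without the Pdx1 transgene. A batch running with the toxin cannot be told apart from it in either pair. Npy (chr6:49822710-49829507), which encodes neuropeptide Y and is made by immature beta-cells and sympathetic nerves, had 8.32, 6.62, 7.92, 6.0, 6.03 and 3.92 in aPdx1OE DT against 4.67, 1.28, 1.93, 2.92 and 2.25 in aPdx1OE noDT. The groups overlapped in 1 library each, aPdx1OE DT 6 and aPdx1OE noDT 1, and every aPdx1OE noDT value lay below the first quartile of the table (5.95). Npy rose by 3.86 ± 0.87 (limma adjusted p = 0.00833; 3.94, adjusted p = 0.00522 without aPdx1OE DT 5), and by 4.51 ± 0.88 (adjusted p = 0.00522) in ctl DT against ctl noDT. Vip (chr10:5639218-5647617), which encodes vasoactive intestinal peptide, a transmitter of pancreatic nerves, had 7.80, 8.18, 9.55, 8.20, 7.15 and 4.45 in aPdx1OE DT against 3.68, 1.72, 2.21, 2.48 and 3.10 in aPdx1OE noDT. Its groups did not overlap, and it rose by 4.92 ± 0.94 (limma adjusted p = 0.00418; 5.0, adjusted p = 0.002 without aPdx1OE DT 5) and by 5.66 ± 0.95 (adjusted p = 0.00158) in ctl DT. The size of these folds depends on the low end of the scale: with an offset of 32 added before taking logs, Npy was at 1.73 (limma adjusted p = 0.0386), Vip at 2.63 (adjusted p = 0.013) and Dkk3 at 1.87 (adjusted p = 0.0257). The neuronal cytoskeleton genes Prph (3.55 ± 0.96, limma adjusted p = 0.0211) and Stmn2 (4.01 ± 1.13, adjusted p = 0.0254) were called in the same direction. In ctl DT against ctl noDT Prph was at 5.49 ± 0.97 (limma adjusted p = 0.00229) and Stmn2 at 4.85 ± 1.14 (adjusted p = 0.0172). They were 2 of 10 measured glial and neuronal markers, beside 4.83% of all genes called higher, and their values in aPdx1OE DT 6 were at that library's lowest value of 2.35. With the offset Prph was at 1.0 (limma adjusted p = 0.0929) and lost its call, and Stmn2 was at 1.5 (adjusted p = 0.0456). The call of Prph was also lost without aPdx1OE noDT 2 (adjusted p = 0.0561) and that of Stmn2 without aPdx1OE noDT 2, 3, 4 or 5 (adjusted p 0.054 to 0.071). The summed level of the 10 markers was 13.65 to 14.19 in aPdx1OE DT and 14.26 to 14.41 in aPdx1OE noDT on the log2 scale. Genes as low as Prph and Stmn2 weigh little in this sum. The median fold change of the 10 markers was 0.84 (1.09 without aPdx1OE DT 5), beside -0.06 for all genes tested. No member was at the lowest value in every library of a group, and the part of nerve RNA in Npy and Vip was not tested. In the library labelled ctl noDT 4, Npy was 6.0, Vip 7.39, Prph 5.93 and Stmn2 7.28, near the values of the library labelled aPdx1OE DT 5. Without aPdx1OE DT 5, in limma, Prph was at 3.35 (adjusted p = 0.024) and Stmn2 was at 3.73 (adjusted p = 0.0304).

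The promoters of Rspo4, Npy and Vip are shown because these genes rose in both fits, the last pair also in ctl DT. Each window runs from 250 bases before to 50 bases after the start of the gene, from RefSeq on GRCm38.p6, at chr2:151842677-151842976, chr6:49822460-49822759 and chr10:5638968-5639267, all on the plus strand. Capitals mark TGACG (the core of a cAMP response element) and TATAAA, both searched on either strand.
Rspo4: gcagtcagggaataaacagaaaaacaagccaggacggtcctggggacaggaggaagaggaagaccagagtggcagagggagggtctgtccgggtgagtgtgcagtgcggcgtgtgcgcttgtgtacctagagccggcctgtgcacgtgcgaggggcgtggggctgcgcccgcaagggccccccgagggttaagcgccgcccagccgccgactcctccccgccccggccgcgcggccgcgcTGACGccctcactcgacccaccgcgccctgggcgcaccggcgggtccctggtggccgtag
Npy: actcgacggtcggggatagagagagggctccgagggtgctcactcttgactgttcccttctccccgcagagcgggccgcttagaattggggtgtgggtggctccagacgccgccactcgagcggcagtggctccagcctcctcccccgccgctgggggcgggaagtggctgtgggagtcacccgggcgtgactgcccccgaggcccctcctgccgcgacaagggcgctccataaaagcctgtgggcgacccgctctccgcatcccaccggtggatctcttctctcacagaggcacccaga
Vip: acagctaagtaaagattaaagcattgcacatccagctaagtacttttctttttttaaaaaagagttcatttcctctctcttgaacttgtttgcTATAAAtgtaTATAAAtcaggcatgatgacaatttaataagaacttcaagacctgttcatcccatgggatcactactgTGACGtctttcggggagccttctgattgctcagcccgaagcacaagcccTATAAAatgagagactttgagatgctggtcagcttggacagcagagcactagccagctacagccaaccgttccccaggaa
The Rspo4 window held 31 CpG pairs and 71.0% GC, that of Npy 24 and 68.0%, and that of Vip 4 and 41.7%. TGACG was in 20.6% of 22862 promoters of this length, in 32.2% of 8179 promoters of genes tested here, in 29.5% of 373 promoters of genes higher in both fits and in 38.7% of 411 promoters of genes lower in both. TATAAA was in 14.8%, 6.96%, 7.51% and 5.6% of the same sets. The longer response element TGACGTCA was in none of the 3 windows and in 1.85% of the 22862 promoters, and each copy also counts as the shorter motif. The AP-1 letters TGANTCA were in none of the 3 and in 7.98% of all. The homeodomain letters TAATTA were in none of the 3 and in 5.45% of all. These are descriptions of letters and not of binding.

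**Figure D1:**
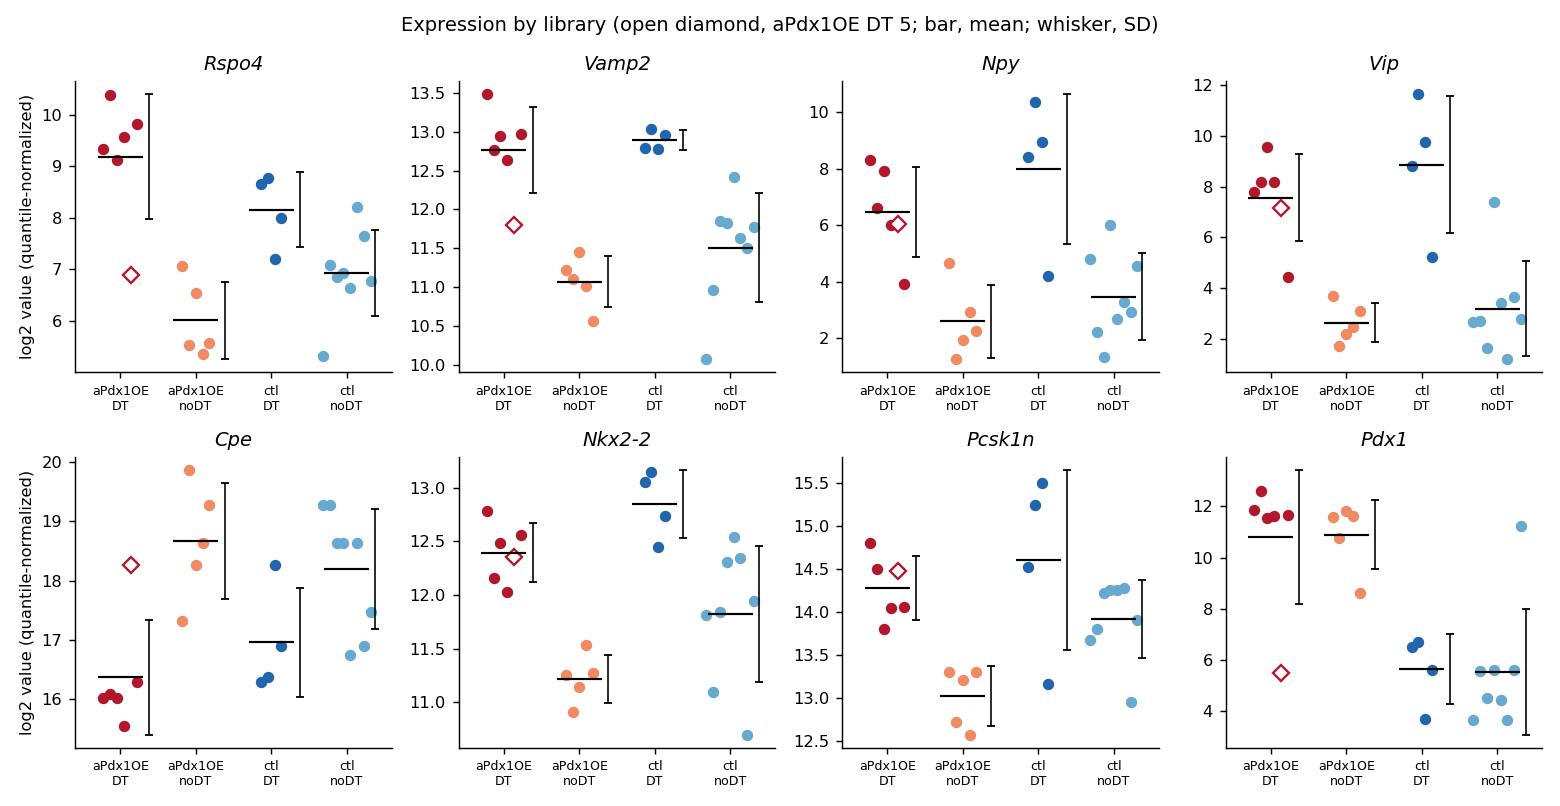
Quantile-normalized log2 values of 8 genes in each library of aPdx1OE DT, aPdx1OE noDT, ctl DT and ctl noDT, with group means (bars) and SD (whiskers); the open diamond is the library labelled aPdx1OE DT 5. Rspo4, Vamp2, Npy, Vip, Nkx2-2 and Pcsk1n lie higher and Cpe lower in aPdx1OE DT than in aPdx1OE noDT, and Pdx1 is at 5.51 in the open diamond.

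Among genes of hormone storage and release, Vamp2 and Pcsk1n rose and Cpe fell, while 3 of 35 exocytosis genes and 2 of 17 granule genes were called, beside 9.22% of all genes. Vamp2 (chr11:69088490-69092384), the vesicle SNARE of granule exocytosis, had 13.48, 12.76, 12.94, 12.64, 11.80 and 12.97 in aPdx1OE DT against 11.22, 11.10, 11.45, 11.01 and 10.56 in aPdx1OE noDT. Its groups did not overlap, with or without aPdx1OE DT 5, and it rose by 1.69 ± 0.27 (limma adjusted p = 0.00109; 1.89, adjusted p = 0.000128 without aPdx1OE DT 5) and by 1.38 ± 0.27 (adjusted p = 0.00582) in ctl DT. Of 35 measured genes of vesicle fusion and exocytosis, 3 rose and none fell (6 rose and 1 fell without aPdx1OE DT 5), among them the SNARE gene Vamp8 (1.45 ± 0.34) and the small GTPase gene Rab3d (0.95 ± 0.26). Vamp8 turned sign (-0.02) with Rn18s-rs5 as a covariate. The call of Rab3d was lost without aPdx1OE DT 6, aPdx1OE noDT 2 or aPdx1OE noDT 5 (adjusted p 0.0514 to 0.0578). Cpe (chr8:64592542-64693054), the carboxypeptidase that trims basic residues from prohormone intermediates, had 16.01, 16.08, 16.01, 15.54, 18.27 and 16.28 in aPdx1OE DT against 17.31, 19.87, 18.27, 18.63 and 19.27 in aPdx1OE noDT. All aPdx1OE DT libraries but the fifth lay below every aPdx1OE noDT library. Cpe fell by 2.31 ± 0.53 on the log2 scale (limma adjusted p = 0.00976), in a range where values show rank. Without aPdx1OE DT 5 it was at -2.69 (adjusted p = 0.00169). In ctl DT it was at -1.24 ± 0.53 (adjusted p = 0.186), and its interaction was not called (adjusted p = 0.679).

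Pcsk1n, which encodes proSAAS, an inhibitor of the convertase PC1/3, had 14.80, 14.50, 13.80, 14.05, 14.48 and 14.06 in aPdx1OE DT against 13.31, 12.72, 13.21, 12.58 and 13.31 in aPdx1OE noDT. These groups did not overlap, and Pcsk1n rose by 1.25 ± 0.28 (limma adjusted p = 0.00821). In the prohormone processing list 1 of 15 genes rose and 2 fell (2 and 2 without aPdx1OE DT 5), the fallers being Cpe and the cysteine protease gene Ctsl (-0.80 ± 0.21, adjusted p = 0.0174, lost without aPdx1OE noDT 5 at 0.0544 and after correction for GC content at 0.0567). In the granin and granule protein list 1 of 17 rose and 1 fell (5 rose and 1 fell without aPdx1OE DT 5). Of all genes 9.22% were called (15.4% without that library). The convertase genes did not pass the test, with Pcsk1 at -0.19 ± 0.54 (limma adjusted p = 0.858) and Pcsk2 at -0.07 ± 0.21 (adjusted p = 0.855). Ica1, a granule-associated autoantigen, was at -0.82 ± 0.23 (adjusted p = 0.0255), and its call was lost without aPdx1OE DT 6, aPdx1OE noDT 2, 3 or 5 (adjusted p 0.0502 to 0.0712). With the covariate Ica1 turned sign (0.09). By limma with aPdx1OE DT 5 left out, Pcsk1n was at 1.21 (adjusted p = 0.00692) and Ctsl was at -0.88 (adjusted p = 0.00728). Ica1 was at -1.03 (adjusted p = 0.00211) and Vamp8 was at 1.57 (adjusted p = 0.00354) without that library. Rab3d was at 1.19 (adjusted p = 0.00166) without that library.

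The hormones and the factors that name the cells did not pass the test. Ins1 had 19.27, 19.27, 19.27, 18.63, 12.10 and 18.63 in aPdx1OE DT against 17.68, 17.47, 17.47, 19.27 and 15.11 in aPdx1OE noDT, and Ins2 had 20.54, 18.27, 17.92, 18.27, 12.77 and 18.27 against 19.27, 17.68, 18.63, 17.92 and 17.09. In aPdx1OE DT 5 both insulin genes were at the level of ctl noDT, where Ins1 was between 11.61 and 14.96 in all libraries but ctl noDT 8. Ins1 was at 0.46 ± 1.16 (limma adjusted p = 0.836; 1.62, adjusted p = 0.244 without aPdx1OE DT 5), Ins2 at -0.45 ± 1.03 (adjusted p = 0.821; 0.53, adjusted p = 0.706) and Gcg at 0.19 ± 1.17 (adjusted p = 0.939; -0.12, adjusted p = 0.958). Pdx1 itself was at -0.10 ± 1.14 (adjusted p = 0.969; 0.96, adjusted p = 0.516), and Mafa, a factor of mature beta-cells, was at or near the lowest values in all 11 libraries (0.76 to 2.35). Of 28 genes of beta-cell identity 2 rose, Npy and Nkx2-2, and none fell (5 rose without aPdx1OE DT 5). Of all genes tested 4.83% were higher and 4.39% lower (7.5% and 7.88% without that library). Nkx2-2 (chr2:147177546-147194243), a factor shared by islet endocrine cells, had 12.78, 12.16, 12.48, 12.03, 12.35 and 12.56 in aPdx1OE DT against 11.25, 10.91, 11.14, 11.53 and 11.27 in aPdx1OE noDT. Its groups did not overlap, and it rose by 1.17 ± 0.25 (limma adjusted p = 0.00614; 1.18, adjusted p = 0.00335) and by 1.03 ± 0.25 (adjusted p = 0.0196) in ctl DT. The 3 that joined without aPdx1OE DT 5 were Ffar1, a fatty acid receptor gene (1.93, limma adjusted p = 0.00354), Slc2a2, the glucose transporter gene (1.54, adjusted p = 0.0403), and Hadh, a fatty acid oxidation gene (1.10, adjusted p = 0.0227). Of 22 genes of alpha-cell identity none rose and 1 fell, the amino-acid transport partner gene Tmem27 (-1.20 ± 0.38, adjusted p = 0.0462), whose call was lost without any 1 of 8 libraries (adjusted p up to 0.152). By limma with aPdx1OE DT 5 left out, Tmem27 was at -1.43 (adjusted p = 0.0121).

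A position between alpha- and beta-cells was computed for each library as the slope of its difference from the ctl noDT mean on the difference between the b-cell reference and ctl noDT means, over 3403 genes called between these references with a log2 fold change of at least 1 in either direction. It was 0.283, 0.293, 0.311, 0.355, -0.0956 and 0.34 in aPdx1OE DT against 0.224, 0.153, 0.171, 0.185 and 0.0571 in aPdx1OE noDT. With all libraries the means were 0.248 ± 0.17 (SD, n = 6) and 0.158 ± 0.0621 (SD, n = 5), a difference of 0.0897 that did not pass a two-sided exact permutation test (p = 0.323). Without aPdx1OE DT 5, which was chosen by its Pdx1 level, every aPdx1OE DT library lay above every aPdx1OE noDT library, and the difference was 0.158 (exact permutation p = 0.00794, the smallest this design allows). In ctl DT, which lacks the Pdx1 transgene, the position was 0.114, 0.171, 0.112 and 0.106. It was -0.113 to 0.153 in ctl noDT, whose mean is 0 by construction, and this pair was not tested. Of the 1496 genes called both ways, 539 also differed between b-cell reference and ctl noDT, and 436 of these (80.9%) had moved to the b-cell reference side, beside 62.0% of all 5734 genes that separate these references (68.1% without aPdx1OE DT 5). The 1496 were chosen by their difference, and genes near 0 split more evenly by sign, so the higher share is a description.

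**Figure D2:**
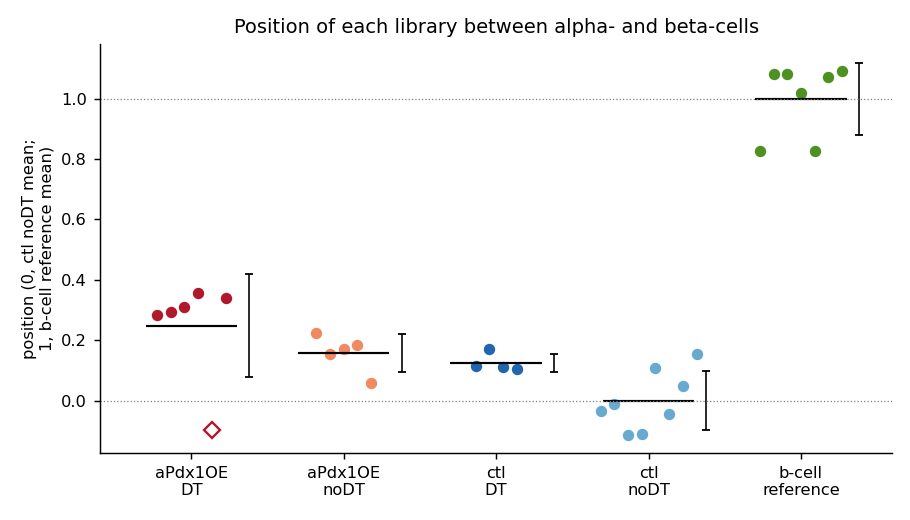
Position of each library between the ctl noDT mean (0) and the b-cell reference mean (1), with group means (bars) and SD (whiskers). Of the aPdx1OE DT libraries 5 lie between 0.283 and 0.355, above the aPdx1OE noDT libraries at 0.0571 to 0.224, and aPdx1OE DT 5 (open diamond) lies at -0.0956. The ctl DT libraries lie between 0.106 and 0.171.

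A few genes of insulin signalling and of the immediate early response were called, in both directions. Akt1, the kinase downstream of the insulin receptor, had 10.48, 10.26, 10.13, 10.86, 9.70 and 10.42 in aPdx1OE DT against 9.68, 9.62, 8.84, 9.32 and 9.24 in aPdx1OE noDT, and the groups did not overlap. Akt1 rose by 0.97 ± 0.22 (limma adjusted p = 0.00833), against -0.01 ± 0.22 (adjusted p = 0.991) in ctl DT. Its means were 9.74 in ctl DT and 9.75 in ctl noDT, between those of aPdx1OE DT (10.31) and aPdx1OE noDT (9.34). Grb14, an adaptor that inhibits the insulin receptor, had 10.16, 10.72, 10.36, 9.95, 10.80 and 9.60 in aPdx1OE DT against 11.16, 11.91, 11.47, 10.84 and 11.12 in aPdx1OE noDT, and fell by 1.03 ± 0.23 (adjusted p = 0.00815). In the insulin and IGF signalling list 2 of 30 genes rose and 2 fell (4 and 3 without aPdx1OE DT 5), beside 9.22% of all genes called (15.4% without that library), and the list median was 0.21. The insulin receptor gene Insr was at 0.39 ± 0.15 (adjusted p = 0.0972; 0.47, adjusted p = 0.0351 without aPdx1OE DT 5). Of 25 immediate early genes, which respond within minutes to stimuli and to tissue dissociation, 3 rose and 1 fell (3 and 2 without aPdx1OE DT 5), with a list median of 0.3. Junb, an AP-1 subunit gene, had 10.65, 11.16, 11.18, 11.01, 11.59 and 11.65 in aPdx1OE DT against 10.30, 9.27, 9.37, 9.08 and 9.58 in aPdx1OE noDT, and rose by 1.69 ± 0.39 (limma adjusted p = 0.00915), against -0.11 ± 0.39 (adjusted p = 0.909) in ctl DT. The means of Junb were 10.85 in ctl DT and 10.95 in ctl noDT, nearer to aPdx1OE DT (11.21) than to aPdx1OE noDT (9.52). The interaction was not called for Akt1 or Junb (limma adjusted p = 0.409 for each). Ier5 had 8.44, 10.02, 9.47, 9.34, 8.73 and 9.44 in aPdx1OE DT against 12.06, 10.89, 10.68, 11.03 and 10.40 in aPdx1OE noDT, with no overlap, and fell by 1.77 ± 0.37 (adjusted p = 0.00598). In ctl DT Ier5 was at -0.74 ± 0.37 (adjusted p = 0.262). Its means were 8.38 in ctl DT and 9.12 in ctl noDT, nearer to aPdx1OE DT (9.24) than to aPdx1OE noDT (11.01). The other risers were the AP-1 subunit gene Jund (1.08 ± 0.30) and Egr3 (1.97 ± 0.62). The calls of Akt1, Junb and Jund did not hold after correction for GC content. The call of Jund was also lost without aPdx1OE DT 1 or aPdx1OE noDT 5 (adjusted p up to 0.0663) and that of Egr3 without any 1 of 8 libraries (adjusted p up to 0.109). Without aPdx1OE DT 5, in limma, Akt1 was at 1.09 (adjusted p = 0.00205) and Grb14 was at -1.14 (adjusted p = 0.00234). Junb was at 1.61 (adjusted p = 0.0093) and Ier5 was at -1.67 (adjusted p = 0.00429) without that library. Jund was at 1.11 (adjusted p = 0.0171) and Egr3 was at 2.12 (adjusted p = 0.0253) without that library.

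Most of the few called genes of protein folding and respiration fell. Of all genes tested 4.39% were lower and 4.83% higher (7.88% and 7.5% without aPdx1OE DT 5). Of 28 genes of the unfolded protein response 3 fell and none rose (3 fell and 1 rose without aPdx1OE DT 5). Dnajb9, a co-chaperone of the endoplasmic reticulum, had 11.91, 11.97, 12.89, 12.21, 11.24 and 11.98 in aPdx1OE DT against 13.37, 12.95, 13.48, 13.60 and 13.24 in aPdx1OE noDT. Its groups did not overlap, and it fell by 1.29 ± 0.27 (limma adjusted p = 0.00599), against -0.14 ± 0.27 (adjusted p = 0.809) in ctl DT. The interaction of Dnajb9 was not called (adjusted p = 0.411). The means of Dnajb9 were 11.98 in ctl DT and 12.12 in ctl noDT, nearer to aPdx1OE DT (12.03) than to aPdx1OE noDT (13.33). Creld2 (-1.01 ± 0.30) and the disulfide isomerase gene Pdia3 (-0.62 ± 0.20) were called too, but lost the call without any 1 of 5 and of 8 libraries (adjusted p up to 0.0709 and 0.112). In the respiratory chain and ATP synthase list 6 of 30 genes fell and 1 rose (8 fell and 2 rose without aPdx1OE DT 5), while the median of the list was -0.26, beside -0.06 for all genes. Uqcrfs1, the Rieske protein of complex III, fell by 1.07 ± 0.26, the ATP synthase gene Atp5f1 by 1.24 ± 0.28, and Uqcrb, another complex III subunit, by 1.68 ± 0.44 (limma adjusted p = 0.0103, 0.00814 and 0.0179). Uqcrb had 11.21, 10.23, 10.72, 9.18, 10.42 and 8.89 in aPdx1OE DT against 10.28, 12.05, 11.83, 11.99 and 12.78 in aPdx1OE noDT, overlapping at aPdx1OE noDT 1, and its call was lost without aPdx1OE DT 6 (adjusted p = 0.0508) or aPdx1OE noDT 5 (adjusted p = 0.0694). With the covariate Uqcrb turned sign (0.31). Cox4i1, a subunit of complex IV, went the other way, with 12.90, 12.60, 12.42, 11.73, 11.71 and 11.81 in aPdx1OE DT against 12.19, 10.36, 10.56, 10.28 and 9.94 in aPdx1OE noDT, and rose by 1.53 ± 0.36 (adjusted p = 0.0104). In limma without aPdx1OE DT 5, Dnajb9 was at -1.14 (adjusted p = 0.00508) and Creld2 was at -0.98 (adjusted p = 0.0311). Pdia3 was at -0.65 (adjusted p = 0.0337) and Uqcrfs1 was at -1.12 (adjusted p = 0.00566) without that library. Atp5f1 was at -1.31 (adjusted p = 0.0037) and Uqcrb was at -1.74 (adjusted p = 0.0125) without that library. Cox4i1 was at 1.63 (adjusted p = 0.00551) without that library. Its difference was 0.68 ± 0.37 (adjusted p = 0.3) in ctl DT against ctl noDT. The means of Cox4i1 there, 12.26 and 11.58, were nearer to aPdx1OE DT (12.2) than to aPdx1OE noDT (10.66).

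Several smaller lists held a few calls each, beside 9.22% of all genes called (15.4% without aPdx1OE DT 5). Of 20 glycolysis genes 3 rose and none fell (5 and none without aPdx1OE DT 5): Pkm (0.77 ± 0.22), the pyruvate kinase gene, Aldoc (0.93 ± 0.29) and Pfkl (1.32 ± 0.42). Each lost its call without any 1 of at least 4 libraries (adjusted p up to 0.136), and Pkm (-0.07) and Pfkl (-0.76) turned sign with the covariate. Of 22 amino-acid transporter genes 3 rose and 1 fell (6 and 2 without aPdx1OE DT 5). The cystine transporter partner gene Slc3a1 fell by 1.12 ± 0.28 (limma adjusted p = 0.0124). Kcnh2, a potassium channel gene, rose by 0.81 ± 0.21 (limma adjusted p = 0.0188), a call lost without aPdx1OE DT 6 (adjusted p = 0.0556) or aPdx1OE noDT 5 (adjusted p = 0.0604), and after correction for GC content (0.36, adjusted p = 0.178). Of 29 calcium, sodium and TRP channel genes 2 rose, Cacna2d2, an auxiliary calcium channel subunit (3.27 ± 0.81, adjusted p = 0.0125), and the calcium pump gene Atp2a3 (0.89 ± 0.22, lost without aPdx1OE noDT 5 at 0.0606). Among 22 islet G protein-coupled receptor genes 1 rose, the muscarinic receptor gene Chrm4 (2.21 ± 0.56, limma adjusted p = 0.0145), which had risen alike in ctl DT (2.38 ± 0.57). With an offset of 32 Cacna2d2 was at 1.54 (limma adjusted p = 0.0381) and Chrm4 at 0.73 (adjusted p = 0.0413). In the cell cycle list 1 of 25 genes rose (5 without aPdx1OE DT 5), Ccnd3 (1.08 ± 0.31), which lost its call without any 1 of 6 libraries (adjusted p up to 0.0953). With all libraries no gene was called among 8 of the Hedgehog list, where Smo was at 0.28 ± 0.36 (adjusted p = 0.649), 24 of interferon response and class I presentation, 18 disallowed in beta-cells and 15 of dedifferentiation and progenitors. Of 16 Notch genes 1 rose, Notch1 (0.52 ± 0.16, adjusted p = 0.0337), against a fall of -0.59 ± 0.16 (adjusted p = 0.037) in ctl DT. Notch1 had the lowest interaction p of all genes (adjusted p = 0.158), and its call was lost without any 1 of 6 libraries (adjusted p up to 0.101). Without aPdx1OE DT 5, in limma, Pkm was at 0.89 (adjusted p = 0.00752) and Aldoc was at 0.95 (adjusted p = 0.0337). Pfkl was at 1.61 (adjusted p = 0.00866) and Slc3a1 was at -1.25 (adjusted p = 0.00372) without that library. Kcnh2 was at 0.93 (adjusted p = 0.00406) without that library. Cacna2d2 was at 3.69 (adjusted p = 0.00341) and Atp2a3 was at 1.03 (adjusted p = 0.00257) without that library. Chrm4 was at 2.59 (adjusted p = 0.00244) and Ccnd3 was at 1.29 (adjusted p = 0.00579) without that library. Notch1 was at 0.51 (adjusted p = 0.0363) without that library.

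**Figure D3:**
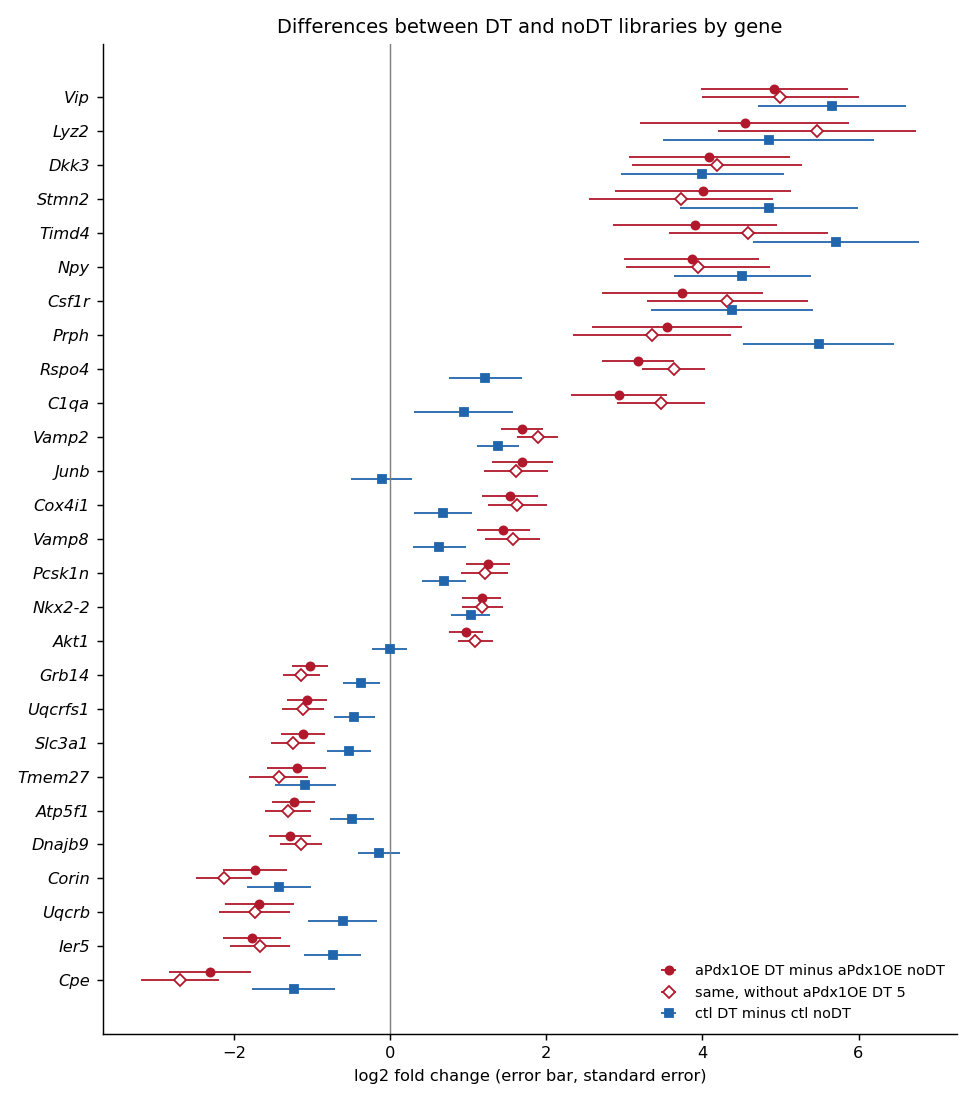
Log2 fold changes with standard errors of 27 genes, for aPdx1OE DT minus aPdx1OE noDT with all libraries (filled circles) and without aPdx1OE DT 5 (open diamonds), and for ctl DT minus ctl noDT (squares). Vip, Npy, Dkk3, Vamp2 and Nkx2-2 have close values in both pairs of groups, while Junb, Akt1 and Dnajb9 are near 0 in the ctl pair. The mean levels of Junb and Dnajb9 in both ctl groups were nearer to aPdx1OE DT than to aPdx1OE noDT. No gene had a called interaction between the pairs.

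Among the genes picked only for size, Corin, a protease of natriuretic peptide processing, had 7.66, 7.91, 6.80, 7.47, 9.74 and 6.80 in aPdx1OE DT against 9.15, 9.36, 9.61, 9.34 and 9.85 in aPdx1OE noDT. It fell by 1.73 ± 0.41 (limma adjusted p = 0.00995; -2.13, adjusted p = 0.000443 without aPdx1OE DT 5). Eif1ax, a translation initiation factor gene, fell by 1.68 ± 0.33 (adjusted p = 0.00457), the nuclear RNA Malat1 by 1.63 ± 0.37 (adjusted p = 0.0084), Nadsyn1, a gene of NAD synthesis, by 1.68 ± 0.40 (adjusted p = 0.0101) and 1700011H14Rik by 3.78 ± 0.79 (adjusted p = 0.00621). On the higher side Polr2f, an RNA polymerase subunit gene, rose by 3.22 ± 0.70, Lars2, a mitochondrial leucyl-tRNA synthetase gene, by 3.05 ± 0.69 and the histone gene Hist1h4d by 3.24 ± 0.64, which shares near-identical copies with other H4 genes (limma adjusted p = 0.00761, 0.0101 and 0.00544). In ctl DT against ctl noDT Corin was at -1.42 ± 0.41 (limma adjusted p = 0.0489). Eif1ax (-0.65), Malat1 (0.0), Nadsyn1 (0.18), 1700011H14Rik (-1.46), Polr2f (1.24), Lars2 (0.74) and Hist1h4d (-0.07) were not called there. The ctl DT and ctl noDT means were 8.87 and 7.62 for Polr2f, 16.32 and 15.57 for Lars2, and 8.61 and 8.68 for Hist1h4d. These were nearer to aPdx1OE DT (8.87, 17.02 and 9.81) than to aPdx1OE noDT (5.65, 13.98 and 6.57). With Rn18s-rs5 as a covariate Polr2f (-0.41), Lars2 (-0.18), Hist1h4d (-0.03) and Nadsyn1 (0.19) turned sign. In limma without aPdx1OE DT 5, Eif1ax was at -1.73 (adjusted p = 0.00194) and Malat1 was at -1.70 (adjusted p = 0.00508). Nadsyn1 was at -1.89 (adjusted p = 0.00281) and 1700011H14Rik was at -3.42 (adjusted p = 0.00522) without that library. Polr2f was at 3.59 (adjusted p = 0.00194) and Lars2 was at 3.29 (adjusted p = 0.00444) without that library. Hist1h4d was at 3.41 (adjusted p = 0.00211) without that library.

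Whether the response to beta-cell loss differed with the Pdx1 transgene was tested as an interaction, and limma called 0 of 16633 genes (0%), with 1527 at an unadjusted p below 0.05 and a lowest adjusted p of 0.158. Without aPdx1OE DT 5 the count was 0 as well (1731 unadjusted, lowest adjusted p = 0.211). This does not show that the responses were alike. In ctl DT against ctl noDT 543 genes were called (3.26%), 261 higher (1.57%) and 282 lower (1.7%), and 142 of these were among the 1496 called in the Pdx1 groups, 141 with the same sign (9.4% of the 1496 and 26% of the 543). Called or not, 90.0% of the 1496 had the same sign in ctl DT, beside 67.5% of all genes tested. For the 785 genes higher in aPdx1OE DT the median difference was 1.19 there and 0.56 in ctl DT, and for the 711 lower genes it was -0.99 and -0.43. Since the 1496 were chosen by the first of these values, the smaller medians in ctl DT and the higher share of like signs are descriptions. The ctl groups also differ from the Pdx1 groups in reporter and breeding.

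Of 20 leukocyte and macrophage markers 5 rose in aPdx1OE DT and none fell, beside 4.83% of all genes higher, with a list median of 2.72 (10 rose and 3.34 without aPdx1OE DT 5; 7 rose and 2.45 in ctl DT). C1qa, a complement subunit gene of macrophages, had 8.36, 8.93, 8.70, 8.91, 5.67 and 9.76 in aPdx1OE DT against 6.25, 5.67, 5.31, 5.31 and 4.76 in aPdx1OE noDT. All aPdx1OE DT libraries but the fifth were above aPdx1OE noDT, and C1qa rose by 2.93 ± 0.62 (limma adjusted p = 0.00668; 3.47, adjusted p = 0.000351 without aPdx1OE DT 5), but turned sign (-0.19) with the covariate. Lyz2, a lysozyme gene, had 9.72, 12.69, 9.42, 13.38, 6.53 and 15.32 in aPdx1OE DT against 9.23, 6.57, 5.96, 3.89 and 7.51 in aPdx1OE noDT and was higher by 4.54 ± 1.34 (adjusted p = 0.0344). Timd4, a receptor of resident macrophages, had 6.26, 7.10, 6.03, 8.64, 3.53 and 10.19 against 3.51, 2.22, 1.93, 2.21 and 5.42 (3.9 ± 1.05, limma adjusted p = 0.0214), and Csf1r, the macrophage growth factor receptor gene, had 6.70, 7.39, 4.99, 10.16, 4.80 and 12.18 against 4.62, 3.09, 3.96, 3.28 and 4.85 (3.74 ± 1.03, adjusted p = 0.0251). The highest values of Lyz2, Timd4 and Csf1r were in aPdx1OE DT 6, and their calls were lost without it (adjusted p = 0.0851, 0.0583 and 0.0602), as well as without aPdx1OE noDT 2 or 4. Without aPdx1OE noDT 3 Lyz2 (adjusted p = 0.0698) and Timd4 (0.0536) lost the call, without aPdx1OE DT 4 Lyz2 (0.0754) and Csf1r (0.0579), and without aPdx1OE DT 2 or aPdx1OE noDT 5 Lyz2 alone (0.0644 and 0.0656). With an offset of 32 Timd4 (2.09, limma adjusted p = 0.0827) and Csf1r (2.56, adjusted p = 0.0685) lost the call. The fifth gene called was Cd79a, of B lymphocytes (2.86 ± 0.86, limma adjusted p = 0.034). By limma with aPdx1OE DT 5 left out, Lyz2 was at 5.47 (adjusted p = 0.00642) and Timd4 was at 4.59 (adjusted p = 0.00391). Csf1r was at 4.32 (adjusted p = 0.00662) and Cd79a was at 3.74 (adjusted p = 0.00134) without that library.

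The summed level of the leukocyte list was 9.09 to 16.25 in aPdx1OE DT and 8.69 to 10.39 in aPdx1OE noDT, and that of aPdx1OE DT 5 (9.09) lay within the aPdx1OE noDT range, with no marker at the lowest value in every library of either group and 4 markers at it in some library of each. None of 20 acinar markers passed the test, but their median was 3.33, with summed levels of 10.80 to 19.05 in aPdx1OE DT and 10.60 to 17.01 in aPdx1OE noDT. Delta- and PP-cell markers were not called (0 of 8), with summed levels of 17.73 to 22.64 and 18.63 to 22.62. In aPdx1OE DT 1 Pyy alone was at 22.56, so Sst weighs little in the highest sums. Sst was at 1.5 ± 0.93 (limma adjusted p = 0.31). Of 12 duct markers 1 fell, Epcam (-0.67 ± 0.20, limma adjusted p = 0.0296), and with aPdx1OE DT 5 left out 2 fell and 1 rose. Epcam turned sign (0.07) with the covariate. None of 3 endothelial and 9 mesenchymal markers were called. Of all genes 9.22% were called (15.4% without aPdx1OE DT 5), so lists this short would hold few calls at that share. The part of these cells in the other results was not tested. In limma without aPdx1OE DT 5, Epcam was at -0.72 (adjusted p = 0.0181).

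**Figure D4:**
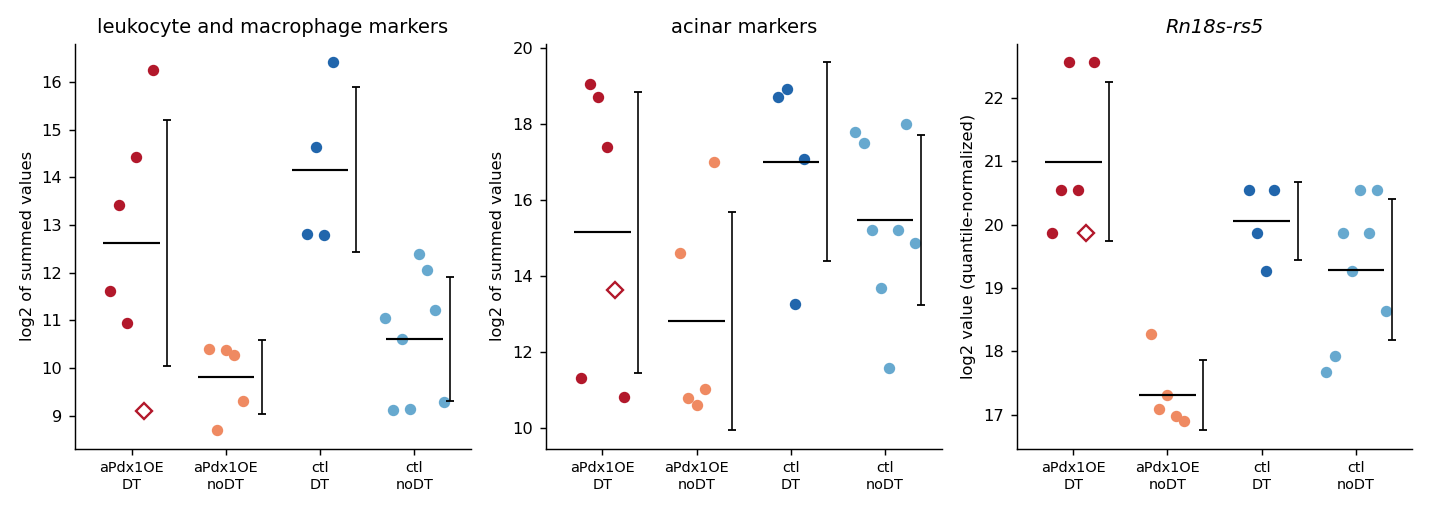
Log2 of the summed values of the leukocyte and of the acinar markers, and the log2 value of Rn18s-rs5, in each library of aPdx1OE DT, aPdx1OE noDT, ctl DT and ctl noDT, with group means (bars) and SD (whiskers); the open diamond is aPdx1OE DT 5. The leukocyte sum reaches 16.25 in aPdx1OE DT, against 10.39 at most in aPdx1OE noDT, and Rn18s-rs5 does not overlap between the groups.

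A ribosomal RNA gene and the base composition of transcripts moved with the groups. Rn18s-rs5, named for 18S ribosomal RNA, was 19.87, 20.54, 22.56, 20.54, 19.87 and 22.56 in aPdx1OE DT against 18.27, 17.09, 17.31, 16.98 and 16.90 in aPdx1OE noDT (3.68 ± 0.51, limma adjusted p = 0.000795; 3.91, adjusted p = 0.000152 without aPdx1OE DT 5), and was at 0.76 ± 0.52 (adjusted p = 0.431) in ctl DT. Its means were 20.06 in ctl DT and 19.29 in ctl noDT, nearer to aPdx1OE DT (20.99) than to aPdx1OE noDT (17.31). With its level as a covariate limma called 0 genes (758 at an unadjusted p below 0.05), and 0 without aPdx1OE DT 5 (992 unadjusted); the covariate separates the groups, and standard errors grew by a median factor of 1.69. Under it 47 of 65 named genes called both ways kept their sign and 18 did not, among them C1qa, Hist1h4d, Polr2f, Lars2, Uqcrb, Vamp8, Ica1, Epcam, Pfkl and Pkm. The 47 count Rn18s-rs5 itself, which is at 0.0 by construction. Of all 1496 genes called both ways 1114 kept their sign. Several folds were smaller with the covariate: Cpe was at -0.46 ± 0.79, Vamp2 at 0.59 ± 0.40, Rspo4 at 1.44 ± 0.70 and Nkx2-2 at 0.86 ± 0.42. Npy (5.27 ± 1.47) and Vip (5.91 ± 1.62) were not smaller, and no gene passed the test. Among 37 histone genes 6 were called higher and 1 lower, with a median of 1.05. Of 45 snoRNA genes 2 were higher and 2 lower (median 0.54), and of 31 miRNA genes 4 were higher and 0 lower (median 0.45). Of all genes tested 4.83% were higher and 4.39% lower, with a median of -0.06.

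The median GC content of the longest transcript was 55.3% for genes higher in aPdx1OE DT and 46.2% for genes lower, beside 49.3% for the 14910 tested genes with a value. Across these genes, which are not independent replicates, the Spearman correlation of fold change with GC content was 0.28 (0.25 without aPdx1OE DT 5), and 0.07 in ctl DT. After the values of each library were corrected for GC content, 1275 genes were called, 744 higher and 531 lower, beside 1431 uncorrected over the same genes (747 higher and 684 lower). Of 1376 genes called both ways with a GC content, 883 held in both corrected fits. Rspo4 (2.99, limma adjusted p = 0.00146), Cpe (-2.21, 0.0126), Npy (3.79, 0.0103), Vamp2 (1.66, 0.00237), Vip (5.22, 0.00568) and Nkx2-2 (1.00, 0.0185) kept their calls. Junb (1.18, limma adjusted p = 0.0641), Akt1 (0.59, 0.0838), Jund (0.39, 0.45) and Notch1 (0.28, 0.282) lost theirs with all libraries. So did Kcnh2 (0.36, 0.178), Pdia3 (-0.49, 0.106), Ctsl (-0.62, 0.0567) and Pfkl (1.08, 0.0783).

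**Figure D5:**
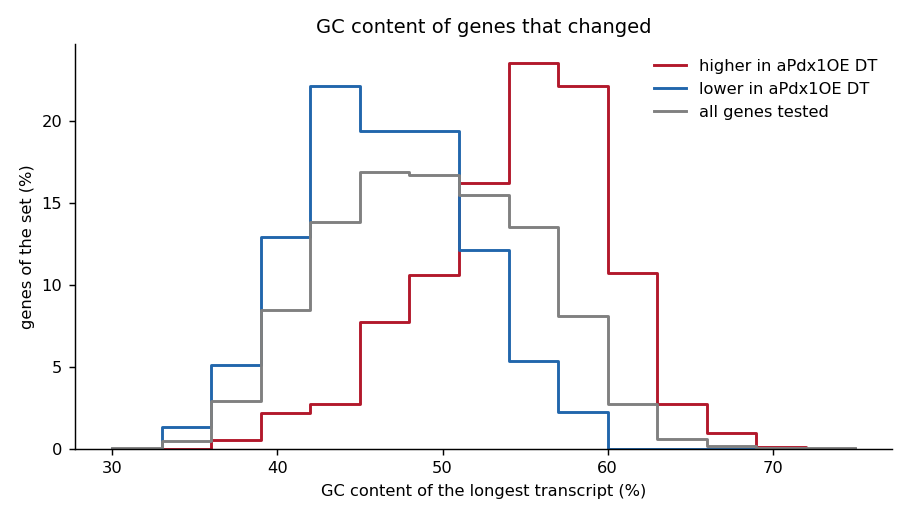
Share of genes (%) by GC content of the longest transcript in steps of 3 percentage points, for genes higher in aPdx1OE DT, genes lower in aPdx1OE DT and all genes tested. The higher genes centre on 55.3% and the lower genes on 46.2%, on either side of 49.3% for all genes.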

How the data were processed

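The authors deposited quantile-normalized log2 values for 17775 genes in 30 libraries; per the submitters' processing notes, reads were aligned with GSNAP and the build was GRCm38. The step from reads to log2 values is not given in the sources used here. Per the labels' protocols, cells were sorted, RNA was extracted with RNeasy Micro and cDNA made with QuantiTect. The depth is unknown, so no counting interval is given. Libraries were matched to samples by title and grouped by the transgenic label. The filter kept 16633 genes that reached 5 in 4 or more libraries and left out 1142. The test was limma 3.58.1 in R 4.3.3 with 1 mean per group over 30 libraries, an intensity trend, robust empirical Bayes moderation and Benjamini-Hochberg adjustment at 0.05, two-sided, and was tested on simulated data. Each fit was repeated without the aPdx1OE DT library whose Pdx1 value is below 8. Position was tested by exact permutation of libraries (Python 3.11.15, scipy 1.17.1).

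The libraries compared, the genes and the gene lists were chosen with earlier results of these data known. Genes named are those of the identity and marker sets, 10 genes from either end of the fold changes, among those called with and without that library, and up to 3 genes rising and 3 falling with the lowest adjusted p in each list, with up to 2 for a list with no call. Pcsk1, Pcsk2, Ffar1, Slc2a2, Hadh and Cd79a were added after their values were seen. Some results that this rule names are not reported here. Replicate numbers follow the order of deposition. Alternatives were other filters, offsets, fits, scalings and covariates, and leaving out libraries.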

Additional observations from a re-analysis of the deposited data

Results flagged for a closer look

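Over 52 groups of libraries examined, 9 had 1 library set apart from the others by a gap larger than Dixon's critical value, where chance gives about 1 in 20 groups. In 7 of the 9 it was the library labelled aPdx1OE DT 5. This library was singled out by its Pdx1 value, so its Pdx1 (5.51, the lowest of its group) is a description and no support. It also had the lowest value of its group for Ins1 (12.10), Ins2 (12.77), Rspo4 (6.89) and C1qa (5.67), the highest for Cpe (18.27), and the lowest position between ctl noDT and b-cell reference (-0.0956). Dkk3 was highest in aPdx1OE DT 6, at 9.29. Cox4i1 was highest in aPdx1OE noDT 1, at 12.19.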

How the results depend on the processing

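The number of genes called between aPdx1OE DT and aPdx1OE noDT, 1534 in the report, was 2558 without the low-Pdx1 library, 3769 with library weights (4066 without the low-Pdx1 library), 904 with these groups fitted alone, 0 in a test against a log2 fold change of 1 (3 without the low-Pdx1 library) and 0 with Rn18s-rs5 as a covariate, with or without that library. It was 853 without aPdx1OE DT 5, aPdx1OE DT 6 and aPdx1OE noDT 5, a choice made after seeing the data. Leaving out 1 library at a time gave 563 to 2558 calls, and 1441 to 3016 when aPdx1OE DT 5 was already out, where the lowest counts were 1441 without aPdx1OE noDT 5 and 1639 without aPdx1OE noDT 2. The interaction had 1 call with library weights and 0 to 3 calls leaving out 1 library, the 3 without ctl DT 1 or ctl DT 2. The difference in position, 0.0897, was 0.0644 to 0.158 leaving out 1 library. Leaving out any 1 library other than aPdx1OE DT 5 gave exact permutation p = 0.295 to 0.557. With all libraries, the difference was 0.0725 on genes with a log2 fold change of at least 2 in either direction (exact permutation p = 0.374). It was 0.0585 with ctl noDT 8 and b-cell reference 1 and 5 left out of the axis (exact permutation p = 0.437). Without the low-Pdx1 library it was 0.158, and 0.116 on that reduced axis (exact permutation p = 0.00794 for each). Without aPdx1OE DT 5 and aPdx1OE noDT 5 it was 0.133 (exact permutation p = 0.00794). The settings of 0.116 and 0.133 were not planned, and the latter was chosen after seeing the data.

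With Rn18s-rs5 as a covariate the log2 fold change turned sign in 18 named genes: LOC101056014 (-0.87), Mir5105 (-1.44), Hist1h4d (-0.03), Polr2f (-0.41), Lars2 (-0.18), Gm10231 (-0.36), Nsmce4a (0.52), Uqcrb (0.31), Nadsyn1 (0.19), Ica1 (0.09), Vamp8 (-0.02), Foxo4 (-0.48), Sos1 (0.14), Pkm (-0.07), Pfkl (-0.76), Slc7a1 (-0.05), C1qa (-0.19) and Epcam (0.07). The cause was not tested for any of these changes. Of 65 named genes called with and without aPdx1OE DT 5, 34 kept the call whichever 1 library was left out. Leaving out aPdx1OE noDT 5 ended 26 of these calls, aPdx1OE DT 6 24 and aPdx1OE noDT 2 23. No paired analysis was possible because replicate numbers only follow the order of deposition. The count stayed within 1.5 times of 1534 with no filter (1486), an offset of 32 (1509), no trend or robust moderation (1362), rescaling (1530) and without 5 doubted libraries (1272). Without read numbers, what depth limits cannot be given per gene.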
